A study of Mus musculus with 16 samples.

Results

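The genes described here are 10 genes of melanocytes and pigment: Tyr, Tyrp1, Dct, Pmel, Mlana, Mitf, Sox10, Kit, Oca2 and Slc45a2. Each was found by matching its symbol to a mouse Ensembl identifier, and all 10 have a row in both expression tables, out of 57005 gene rows in all. The 16 libraries are bulk RNA sequencing of C57BL/6 mice, in a series on G-protein-coupled receptor kinase 2 (GRK2) in the upkeep of hair follicles. Whole back skin of mice labelled as 8 months old gave 5 control libraries and 5 libraries of mice whose genotype is given as GRK2 eKO, called eKO below. Bulge hair follicle stem cells (HFSC), sorted as positive for CD34 and α6-integrin, gave 3 control and 3 eKO libraries. The HFSC sample labels state an age of 18 months and the design text states 8 months, so the age of those animals is not settled. The abbreviation eKO is not spelled out in the labels, and the driver of the deletion, the deleted exons and the sex of the animals are not given in the sources used here. Nothing states that the libraries of a group came from separate animals, so p-values measure the spread between these libraries only.

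Values are normalised read counts, the reads of a gene divided by one size factor per library. Libraries held 11.6 to 14.2 M gene reads (M, the SI prefix mega) in control skin, 8.21 to 16.4 M in eKO skin, 6.43 to 6.73 M in control HFSC and 6.43 to 9.39 M in eKO HFSC. Grk2 itself, read over its whole gene row, ran from 1100 to 1492 in control skin and from 980 to 1224 in eKO skin. In HFSC it ran from 121 to 144 in controls and from 104 to 122 in eKO. The ranges overlapped in both tissues, and neither difference passed the limma test (adjusted p = 0.343 in skin and 0.501 in HFSC). The bulge markers of the HFSC list were abundant in every sorted library, with a summed value between 211199 and 244518.

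Melanocytes are the pigment cells of skin. In mouse back skin nearly all of them live in hair follicles, where melanocyte stem cells sit in the bulge and hair germ, beside the HFSC, and mature melanocytes of the growing bulb pass pigment to the hair shaft. Pigment is made in melanosomes only while the hair grows, in the phase called anagen, and the pigment cells of the bulb are lost when the follicle regresses. MITF, working with SOX10, switches on the enzyme genes Tyr, Tyrp1 and Dct, and KIT is the receptor through which melanocytes receive stem cell factor.

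The promoter windows of the 3 enzyme genes are shown first because these genes varied together in skin and are textbook targets of MITF. Each window runs from 250 bases before to 50 bases after a transcription start, 5′ to 3′ on the gene's own strand, from RefSeq on GRCm38.p6. That build differs from the GRCm39 build named for the expression tables, so the coordinates belong to the sequences alone. Capitals mark TCATGTG or its reverse complement CACATGA, the M-box letters read by MITF, and ACAAAG or its reverse complement CTTTGT, letters of the SOX family.
Tyr, chr7:87493463-87493762, minus strand: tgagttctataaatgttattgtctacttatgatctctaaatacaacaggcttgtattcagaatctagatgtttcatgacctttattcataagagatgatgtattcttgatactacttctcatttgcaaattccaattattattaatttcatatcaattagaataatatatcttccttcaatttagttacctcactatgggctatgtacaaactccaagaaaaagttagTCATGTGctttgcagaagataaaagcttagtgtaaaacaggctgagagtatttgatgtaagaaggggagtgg
Tyrp1, chr4:80833963-80834262, plus strand: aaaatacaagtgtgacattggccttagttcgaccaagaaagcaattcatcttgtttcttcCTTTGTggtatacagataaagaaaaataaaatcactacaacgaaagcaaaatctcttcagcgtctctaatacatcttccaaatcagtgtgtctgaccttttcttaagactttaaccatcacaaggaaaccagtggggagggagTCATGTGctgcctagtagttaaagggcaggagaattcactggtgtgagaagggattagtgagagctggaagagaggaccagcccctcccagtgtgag
Dct, chr14:118052197-118052496, minus strand: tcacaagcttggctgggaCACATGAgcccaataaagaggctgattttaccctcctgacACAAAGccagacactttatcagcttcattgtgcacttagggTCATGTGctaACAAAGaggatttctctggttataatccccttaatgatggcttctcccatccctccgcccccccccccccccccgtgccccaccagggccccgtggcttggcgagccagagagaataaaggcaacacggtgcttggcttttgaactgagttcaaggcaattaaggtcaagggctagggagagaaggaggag
The table held 9 windows for 6 of the 10 genes: Tyr, Tyrp1, Dct, Oca2, Kit and Mitf. Both strands were searched. TCATGTG stood at base 229 of the Tyr window and at base 204 of the Tyrp1 window. In Dct it stood at base 100, and as CACATGA at base 19. It was in none of the Kit, Mitf or Oca2 windows, and 3.77% of the 32851 windows of all genes hold it. ACAAAG occurred 2 times in Dct, and as CTTTGT 1 time each in Tyrp1 and Oca2, against 18.7% of all windows. The letters CACGTG, another sequence bound by MITF and by many related factors, were in none of the 9 windows and in 7.15% of all windows. A match describes the letters only and no binding was measured.

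Mitf has 3 windows in the table, far apart along chromosome 6, because different cells start its transcripts at different places. The first and the last are printed here, since the gene carried the clearest genotype difference in HFSC and its value sums the reads of every start. They hold none of the 3 motifs and so no capitals.
Mitf, first start, chr6:97806808-97807107, plus strand: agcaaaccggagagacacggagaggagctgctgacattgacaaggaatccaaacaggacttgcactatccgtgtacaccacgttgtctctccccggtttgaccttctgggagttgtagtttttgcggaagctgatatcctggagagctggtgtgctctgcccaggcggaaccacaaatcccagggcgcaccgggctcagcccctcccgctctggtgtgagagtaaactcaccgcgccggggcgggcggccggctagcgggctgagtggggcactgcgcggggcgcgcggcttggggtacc
Mitf, last start, chr6:97991533-97991832, plus strand: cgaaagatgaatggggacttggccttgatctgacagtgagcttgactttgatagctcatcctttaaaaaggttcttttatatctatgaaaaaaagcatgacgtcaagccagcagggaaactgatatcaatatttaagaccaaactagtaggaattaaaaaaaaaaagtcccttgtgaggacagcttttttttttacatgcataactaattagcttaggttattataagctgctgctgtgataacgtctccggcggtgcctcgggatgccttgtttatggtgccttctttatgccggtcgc
Which of these starts was used in either tissue cannot be read from values per gene.

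In whole skin the pigment genes differed far more between libraries than between genotypes. None of the 9 members that passed the filter on low values (at least 10 in at least 5 libraries) was called different in eKO skin at an adjusted p under 0.05 in limma, a call made for 0.374% of all genes tested. None of the 9 had an unadjusted p under 0.05, and edgeR and DESeq2 on the recovered reads also called 0. The member left out by the filter was Oca2. The eKO and control libraries overlapped for all 10 members, where 4.18% of all tested genes had groups that did not overlap. A difference in the number of pigment cells and a difference in RNA per pigment cell cannot be told apart in bulk tissue.

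Tyr encodes tyrosinase, the enzyme that starts melanin synthesis. In control skin, replicates 1 to 5, it was counted at 4.73, 2.53, 25.1, 976 and 66.5, and in eKO skin at 24.9, 44.2, 52.7, 136 and 33.6. One control library, replicate 4, was the highest and the 2 lowest were also controls, so that the eKO values lay inside the control range. Tyrp1, an enzyme of the later steps toward brown and black eumelanin, was at 25.5, 20.2, 31.3, 1525 and 183 in controls and at 186, 83.4, 213, 279 and 139 in eKO. Dct, the dopachrome tautomerase that is also on in melanocyte stem cells, was at 117, 65.8, 188, 3887 and 608 in controls and at 496, 342, 475, 736 and 342 in eKO. All 3 enzymes had much the same shape, with control replicates 1 to 3 low and control replicate 4 very high. The eKO libraries and control replicate 5 lay in between. For Tyr, control replicate 3 was level with the lowest eKO library.

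On the log2(value + 1) scale the eKO difference was 0.62 for Tyr (SE 1.30, limma adjusted p = 0.865), 0.94 for Tyrp1 (SE 1.04, adjusted p = 0.734) and 0.51 for Dct (SE 0.91, adjusted p = 0.838). Each is a mean of logs, in which the low control libraries weigh as much as the high one. The plain means point the other way, with Tyr at 215 ± 426 (SD, n = 5) in controls and 58.2 ± 44.6 (SD, n = 5) in eKO, and the fits on recovered reads follow them (edgeR log2 difference of -1.91 for Tyr, -1.01 for Tyrp1 and -1.05 for Dct, none called). Without control replicate 4 the limma differences became 1.85 for Tyr (adjusted p = 0.335), 1.97 for Tyrp1 (adjusted p = 0.182) and 1.40 for Dct (adjusted p = 0.263). Without that library 4 of the 9 members (Tyrp1, Dct, Slc45a2 and Mitf) had an unadjusted limma p under 0.05, against 15.1% of all genes, and none was called. Neither sign therefore holds for these genes, and with replicate 4 in, the 95% interval of the Tyr difference ran from -2.25 to 3.49.

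Slc45a2 and Oca2 encode membrane transport proteins of the melanosome that set the conditions in which tyrosinase works. Slc45a2 was at 0.946, 0, 5.22, 151 and 15.2 in control skin and at 12.5, 17.7, 15.4, 14.0 and 5.85 in eKO skin. Oca2 was at 0, 0, 4.18, 235 and 8.55 in controls and at 1.78, 10.8, 10.3, 23.4 and 2.92 in eKO. Both were close to the detection floor of 3 reads in some control libraries and at their highest in control replicate 4. In eKO skin Oca2 had 2 reads in each of replicates 1 and 5, and Slc45a2 had 4 reads in replicate 5. The log2 difference of Slc45a2 was 0.77 (SE 1.14, limma adjusted p = 0.804), and it was -1.40 in edgeR and 1.84 (adjusted p = 0.296) in limma without control replicate 4.

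Pmel forms the fibrils on which melanin is laid down, and Mlana (melan-A) is a small melanosome membrane protein. Pmel ran from 82.3 to 285 in control skin and from 94.4 to 136 in eKO skin, with a log2 difference of -0.33 (SE 0.31, limma adjusted p = 0.682). Mlana was at 126, 16.9, 9.40, 195 and 14.3 in controls and at 35.6, 26.5, 17.3, 18.7 and 48.3 in eKO. It departed from the enzymes in control replicate 1, which had the second highest Mlana value of all 10 libraries and was among the 3 lowest libraries for Tyr, Tyrp1 and Dct. Its log2 difference was -0.39 (SE 0.80, adjusted p = 0.859), and 0.21 (adjusted p = 0.920) without control replicate 4.

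The regulators Mitf and Sox10 and the receptor Kit varied much less than the enzymes, as did Pmel. Mitf ran from 791 to 1793 in control skin and from 1149 to 1736 in eKO skin, a log2 difference of 0.21 (SE 0.19, limma adjusted p = 0.665). Sox10, which Schwann cells of skin nerves also express, ran from 49.7 to 175 in controls and from 86.4 to 159 in eKO. Kit, which mast cells also carry, ran from 115 to 546 in controls and from 202 to 403 in eKO. The log2 differences were 0.31 for Sox10 (SE 0.34, adjusted p = 0.726) and 0.14 for Kit (SE 0.36, adjusted p = 0.896). Over the 9 tested members the median log2 difference was 0.31, with 7 positive and 2 negative, and the median of all tested genes was 5.91e-05. In edgeR, 7 of the 9 were negative and the median was -1.01.

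**Figure D1:**
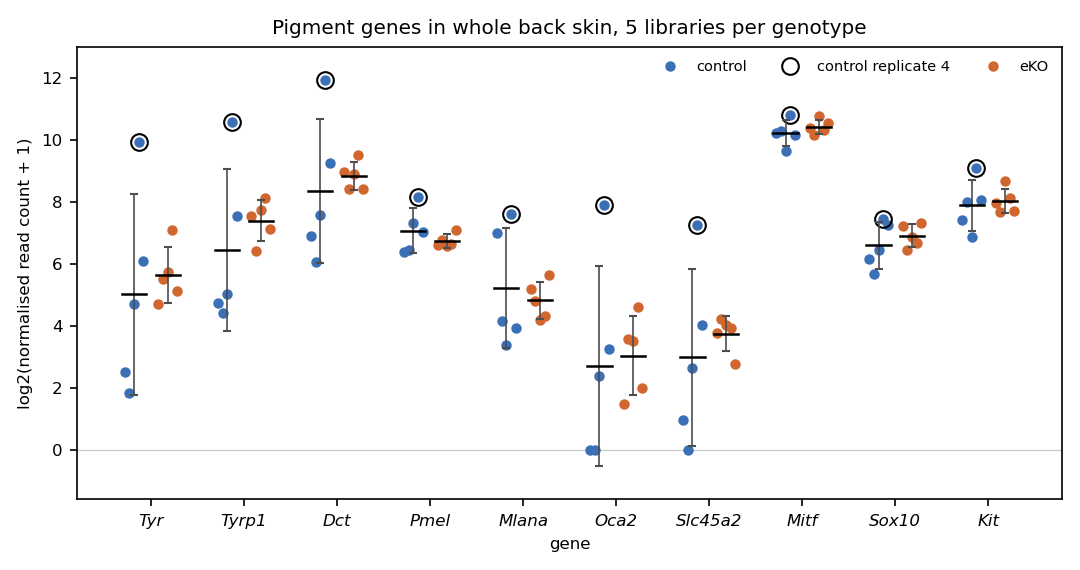
Normalised read counts of the 10 pigment genes in the 10 skin libraries, side by side on a log2(value + 1) axis, with 1 point per library, control replicate 4 ringed, and the mean and SD of the log2 values of each group as a bar with whiskers. Control replicate 4 is the highest point for every gene, and the eKO points lie inside the control range for all 10.

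Spread over the 10 skin libraries differed widely among the members. The highest library exceeded the lowest 75.4-fold for Tyrp1 and 59.1-fold for Dct, but 4.75-fold for Kit, 3.51-fold for Sox10, 3.46-fold for Pmel and 2.27-fold for Mitf. The standard deviation of log2 values was 2.26 for Tyr, 1.98 for Slc45a2, 1.87 for Tyrp1, 1.60 for Dct and 1.37 for Mlana. It was 0.62 for Kit, 0.58 for Sox10, 0.53 for Pmel and 0.34 for Mitf, where the median of all tested genes was 0.33. Of all tested genes, 99.2% had a smaller spread than Tyr and 51.4% a smaller spread than Mitf. The enzymes and Slc45a2 were thus among the most variable genes of this table, and Mitf was near its middle.

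Control replicate 4 was the highest library for 10 of 10 members, whereas 16.5% of all tested genes were highest there. Its excess over the next library was 10.1-fold for Oca2, 8.56-fold for Slc45a2, 7.19-fold for Tyr, 5.47-fold for Tyrp1 and 5.28-fold for Dct. It was 1.79-fold for Pmel, 1.55-fold for Mlana, 1.35-fold for Kit, 1.10-fold for Sox10 and 1.03-fold for Mitf. Of 12 further melanocyte genes, 6 were highest in the same library (Trpm1, Mc1r, Gpr143, Pax3, Slc24a5 and Mlph) and 6 were not (Bace2, Ednrb, Gpnmb, Rab27a, Rab38 and Slc7a11). Trpm1, a melanocyte cation channel, was at 1134 there and between 20.8 and 184 in the other 9 libraries, and Mc1r, the melanocortin receptor, was at 190 there and at no more than 17.8 elsewhere.

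That library also had the most hair shaft RNA. The summed value of 14 hair shaft genes ran from 108 to 38587 in control skin and from 317 to 8726 in eKO skin, and that of 9 genes of the inner root sheath from 26.5 to 151077 and from 80.2 to 62653. A score over 23 of these genes, in units of its standard deviation over the 10 libraries, was 1.53 in control replicate 4. The other controls had -1.29, -0.74, 0.27 and 0.46 in replicates 1, 2, 3 and 5. The eKO libraries had -1.17, 0.17, 1.04, 0.76 and -1.05 in replicates 1 to 5. Scores on both sides of 0 occurred in each genotype.

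The slope of each pigment gene on this score was fitted with genotype as a second term. Per unit of score, log2 Tyr was higher by 1.82 (SE 0.41, limma adjusted p = 0.0513), Slc45a2 by 1.48 (SE 0.41, adjusted p = 0.0881), Tyrp1 by 1.22 (SE 0.41, adjusted p = 0.139) and Dct by 1.12 (SE 0.35, adjusted p = 0.113). Kit had a slope of 0.36 (adjusted p = 0.249), Pmel of 0.29 (adjusted p = 0.282), Sox10 of 0.19 (adjusted p = 0.579) and Mitf of 0.09 (adjusted p = 0.647). Mlana alone had a negative slope, -0.14 (adjusted p = 0.898). None of the 9 passed the limma threshold, against 2.21% of all tested genes. At an unadjusted p under 0.05 there were 5 of the 9 (Tyr, Slc45a2, Dct, Tyrp1 and Kit), against 20.1% of all genes, and edgeR called Tyr alone (slope 2.05, adjusted p = 0.0363).

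The slopes leaned on control replicate 4. Without it they were 1.16 for Tyr (limma adjusted p = 0.290), 0.85 for Slc45a2 (adjusted p = 0.510), 0.54 for Tyrp1 (adjusted p = 0.661) and 0.55 for Dct (adjusted p = 0.587). Oca2 did not pass the filter over all 10 libraries. Fitted with no filter it had a slope of 2.04 (limma adjusted p = 0.0215), and with no filter and without control replicate 4, a fit chosen after seeing the data, 1.39 (adjusted p = 0.0866). Whether the phase of the hair cycle differed between these animals was not measured and not tested.

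**Figure D2:**
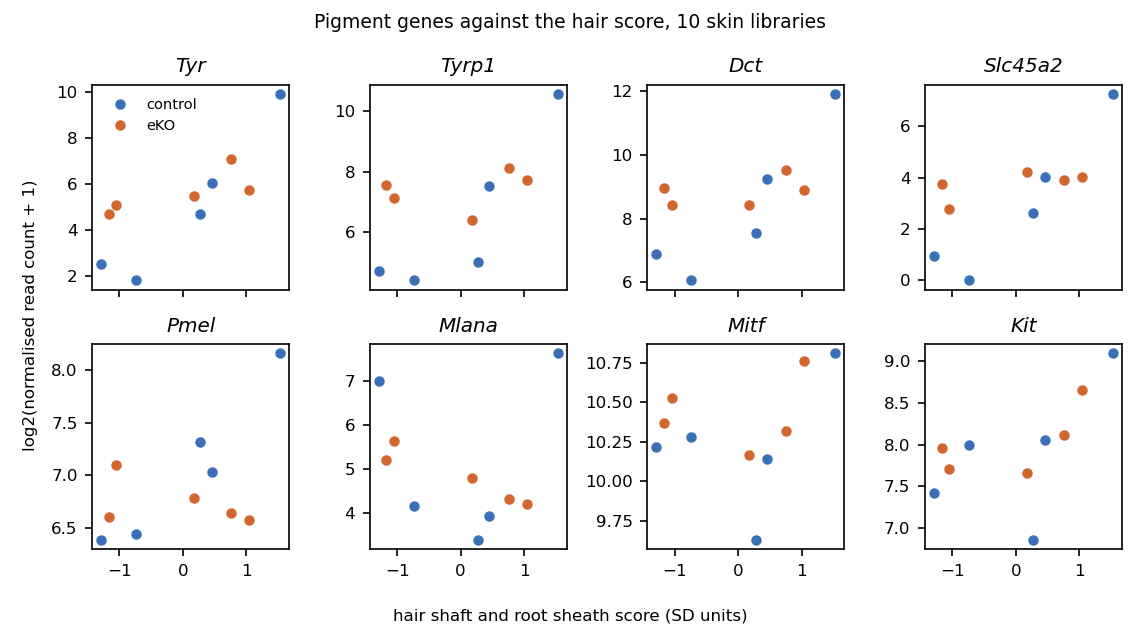
Log2(value + 1) of 8 pigment genes against the hair score (in standard deviations) in the 10 skin libraries, 1 panel per gene, control and eKO libraries marked apart. Tyr, Tyrp1, Dct and Slc45a2 run upward with the score, ending in control replicate 4 at 1.53, while Mitf is nearly flat.

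The genes whose skin profile was most like the pigment genes were ranked by Pearson's r, over the 10 skin libraries, with the mean of the standardised log2 values of Tyr, Tyrp1, Dct, Pmel, Mlana and Slc45a2. The 10 highest outside the members were Scube3 (r = 0.985), Syce2 (0.970), Recql4 (0.964), Prr5l (0.953), Neil3 (0.953), 2010110G14Rik (0.949), Gm2115 (0.948), Spag5 (0.948), Gm5362 (0.943) and Cep152 (0.942). Scube3, which encodes a secreted signalling protein, was at 559 in control replicate 4 and between 25.3 and 114 elsewhere. Of the members left out of the mean, Sox10 had r = 0.783, Kit 0.666 and Mitf 0.551, and without control replicate 4 they had 0.869, 0.268 and 0.232. Mlana and Pmel, which are in the mean, went from 0.524 to -0.13 and from 0.805 to 0.413 without that library. The libraries share depth and tissue composition, and these values describe likeness only. Without control replicate 4 only 2 of the 10 genes were again among the 10 most alike, and without it and control replicate 2 none was.

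In sorted HFSC the picture was different: most pigment genes were at trace levels, and Mitf was abundant and lower in eKO. Mitf was at 2078, 1769 and 1670 in the 3 control libraries and at 448, 780 and 697 in the 3 eKO libraries. Every eKO library lay below every control library, where 36.3% of all tested genes had groups that did not overlap in either direction. The group values were 1839 ± 213 (SD, n = 3) in controls and 642 ± 173 (SD, n = 3) in eKO, and the log2 difference was -1.55 (SE 0.18, limma adjusted p = 6.32e-05), so that eKO HFSC held 34.1% of the control level (95% interval 26.2% to 44.5%). Mitf was the 1 member called of the 5 that passed the filter (at least 10 in at least 3 libraries), where 19.4% of all tested genes were called in either direction and 8.74% were called lower. Over 13 other settings, including each library left out in turn, the difference stayed between -1.71 and -1.31 and was called each time, with adjusted p from 2.71e-16 to 9.26e-04 in limma, edgeR and DESeq2.

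**Figure D3:**
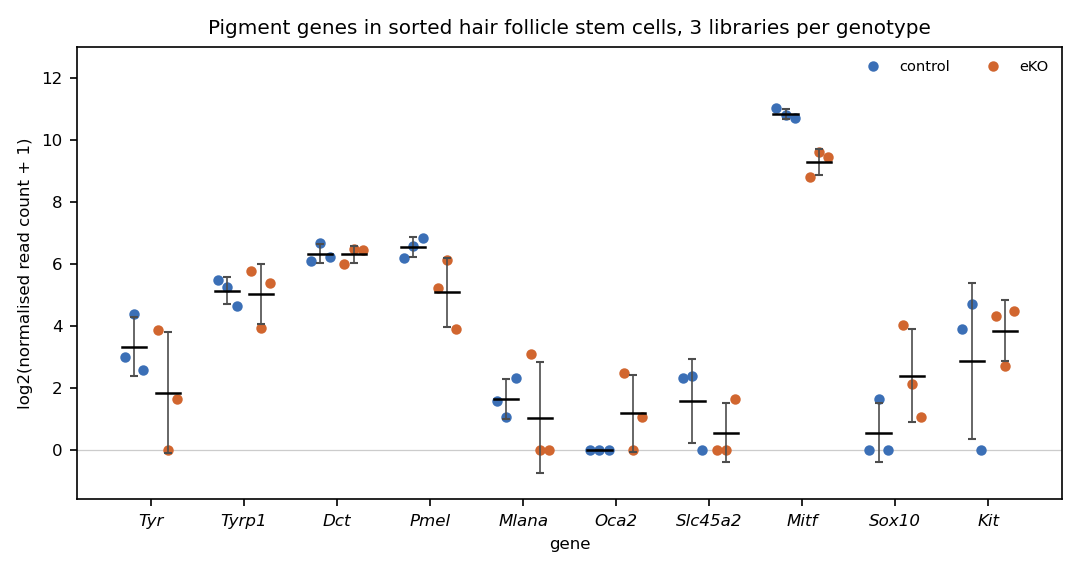
Normalised read counts of the 10 pigment genes in the 6 HFSC libraries, side by side on a log2(value + 1) axis, with 1 point per library and the mean and SD of the log2 values of each group as a bar with whiskers. The 3 eKO points lie below the 3 control points for Mitf (448 to 780 against 1670 to 2078) and for Pmel, and 5 genes have values under 21 in every library.

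Mitf is not restricted to melanocytes, and in HFSC it did not keep company with its melanocyte partners. Per kilobase of exon, control HFSC held 297 ± 34.4 of Mitf (SD, n = 3), 40.5 ± 8.79 of Pmel, 13.6 ± 3.09 of Dct and 12.3 ± 3.56 of Tyrp1. The others were at 2.22 ± 1.42 for Mlana, 1.50 ± 1.15 for Tyr, 1.47 ± 1.42 for Kit, 0.916 ± 0.794 for Slc45a2 and 0.230 ± 0.398 for Sox10, and Oca2 was at 0 in all 3. Dct and Tyrp1 did not differ beyond their spread, nor did Mlana, Tyr, Kit and Slc45a2. In eKO skin, the less variable skin group, the order per kilobase was Mitf 225 ± 36.3 (SD, n = 5), Dct 81.1 ± 27.3, Tyrp1 63.7 ± 26.2, Pmel 46.6 ± 7.55, Sox10 39.9 ± 10.1, Kit 30.1 ± 9.14, Mlana 27.7 ± 12.2, Tyr 8.19 ± 6.27, Slc45a2 4.39 ± 1.50 and Oca2 2.48 ± 2.18. The SDs of neighbours overlapped throughout that order from Dct to Mlana, and again from Tyr to Oca2. Mitf led in control HFSC and in eKO skin, while Sox10 stood level with Kit and Pmel in eKO skin and near 0 in control HFSC. In control skin Mitf was at 198 ± 58.3 (SD, n = 5) and Dct at 165 ± 279, and these spreads overlapped. Dct exceeded Mitf in control replicate 4 (659 against 289), and Mitf was the higher in the other control skin libraries. The tables were normalised separately, so levels are set in order within a tissue only.

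Sox10, which melanocytes keep throughout life, was read 0, 2 and 0 times in control HFSC and 20, 3 and 1 times in eKO HFSC. Tyr was read 7, 19 and 5 times in controls and 18, 0 and 2 times in eKO. Oca2 was read 0 times in each control and 6, 0 and 1 times in eKO, and a count of 0 allows up to 3 reads. eKO replicate 1 had the most reads for Sox10, Tyr, Oca2, Mlana, Tyrp1 and Kit in the eKO group. It was also the deepest eKO library. These 3 genes did not pass the filter, and fitted with no filter none was called (limma log2 difference of 1.84 with adjusted p = 0.236 for Sox10, -1.48 with 0.453 for Tyr and 1.17 with 0.332 for Oca2). Mc1r was at 0 in every control library, and Gpr143, a receptor of the melanosome membrane, at 0 in every eKO library.

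Dct and Tyrp1 were the best measured of the melanocyte enzymes in HFSC, and neither passed the test. Dct was at 66.8, 101 and 73.0 in controls and at 62.9, 87.7 and 85.2 in eKO, a log2 difference of -0.02 (SE 0.30, limma adjusted p = 0.971, 95% interval -0.67 to 0.63). Tyrp1 was at 43.9, 36.8 and 24.0 in controls and at 53.8, 14.3 and 40.5 in eKO, a difference of -0.10 (SE 0.53, adjusted p = 0.922). Kit was at 14.0, 25.2 and 0 in controls and at 19.0, 5.48 and 21.3 in eKO, a difference of 0.96 (SE 1.12, adjusted p = 0.595) that was -0.48 without control replicate 3, which had no Kit read. The groups overlapped for all 3 genes. The median log2 difference of the 5 tested members was -0.10, and that of all tested genes was -0.03.

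Pmel was lower in all 3 eKO libraries but missed the threshold. It was at 71.8, 94.7 and 112 in controls and at 36.4, 68.0 and 13.8 in eKO. The groups did not overlap, as was so for 36.3% of all tested genes, Mitf among them. The log2 difference was -1.45 (SE 0.49, limma adjusted p = 0.0551), and it was called without eKO replicate 2 (-1.97, adjusted p = 0.0139). With each library left out in turn it ran from -1.97 to -0.86 (limma adjusted p from 0.0139 to 0.181). The exons of Pmel share 105 bases with Dgka and 34 bases with Cdk2 on the opposite strand in the GENCODE M21 annotation, and those genes had medians of 492 and 831 in HFSC. Whether the counting used strand is not given in the sources used here, so reads of Pmel and of these neighbours may be mixed and the Pmel value is uncertain.

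Whether the genotype moved a member differently in HFSC than in skin was tested directly for the 5 members measured in both. For Mitf the HFSC effect was lower than the skin effect by a log2 difference of -1.77 (SE 0.31, limma adjusted p = 0.00256), which 5.62% of genes passed in either direction and 2.18% in the negative direction. It was called in all 20 alternatives, between -1.93 and -1.53 (adjusted p from 4.34e-04 to 0.0109). The difference was -1.13 for Pmel (limma adjusted p = 0.300), -1.03 for Tyrp1 (adjusted p = 0.730), -0.53 for Dct (adjusted p = 0.849) and 0.82 for Kit (adjusted p = 0.720), and none of these 4 passed.

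**Figure D4:**
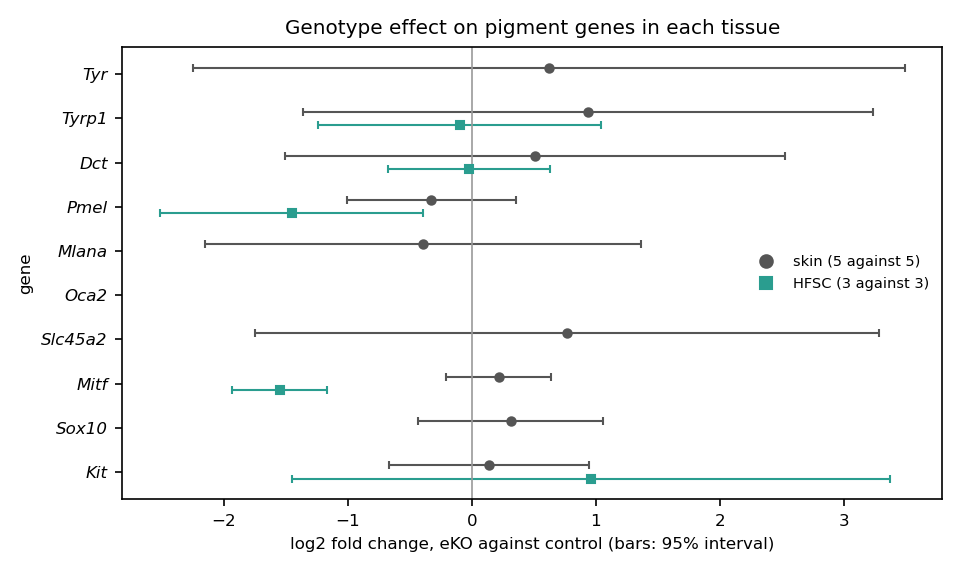
Log2 difference of eKO against control, with 95% intervals, for each pigment gene in skin (9 genes) and in HFSC (5 genes); genes that did not pass the filter have no point. Mitf in HFSC lies at -1.55 with an interval from -1.93 to -1.17, and every skin interval spans 0.

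Markers of other cells moved with genotype in HFSC, beside the fall of Mitf. All 4 Y-linked genes tested fell, from a summed 2340 to 2476 in controls to 704 to 831 in eKO, so the mix of sexes among the animals and the genotype cannot be told apart in this tissue. All 7 endothelial genes rose, from a summed 13.7 to 44.0 up to 1032 to 1257, with Vwf and Emcn at 0 in the controls. Of 4 leukocyte genes tested 3 rose, the MHC class II genes Cd74, H2-Ab1 and H2-Eb1, and the list of 6 went from a summed 279 to 332 up to 1341 to 2262. The other gene tested, Ptprc, did not pass, with 20, 14 and 10 reads in controls and 37, 17 and 3 reads in eKO. Cd3e and Cd207 were below the filter, so the leukocyte rise rests on the MHC class II genes alone. Of 7 inner root sheath genes 5 rose, from a summed 218 to 272 up to 1391 to 1583. The bulge markers did not move as a block, with 3 of 11 higher and 1 lower. Over all genes tested in HFSC, 10.7% were called higher and 8.74% lower. The part of these cells in the Mitf difference was not tested.

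Mast cells, which carry Kit and Mitf, and Schwann cells, which carry Sox10, were checked by their own markers. Of 11 mast cell genes, 8 were at 0 in all control HFSC libraries, including Cpa3 and Tpsb2, and 7 in all eKO libraries. Their summed value was 34.9 to 44.2 in controls and 25.2 to 67.5 in eKO. Of the 2 tested, Mrgprb2, a mast cell receptor, fell (-2.80, limma adjusted p = 0.0426), a call lost without any one of control replicates 1, 2 or 3 (adjusted p 0.131 to 0.155) or eKO replicate 1 (-1.83, adjusted p = 0.0584). It was also lost in edgeR with TMM (adjusted p = 0.0680) or library-size scaling (0.0607), and in limma with no filter (0.0735) or a pseudocount of 0.5 (0.0576). Of 8 Schwann cell genes tested, Egr2 (0.97, adjusted p = 4.43e-04) and Erbb3 (0.74, adjusted p = 0.00129) rose, and the list summed to 1595 to 1731 in controls and 2204 to 2867 in eKO, with Foxd3 at 0 in both groups. In skin 0 of 11 mast cell genes and 0 of 10 Schwann cell genes were called in limma (1 and 2 at an unadjusted p under 0.05, 0 and 0 in edgeR, 0 and 2 in DESeq2). Of all tested genes, limma called 10.7% higher and 8.74% lower in HFSC. In skin it called 0.374% of all tested genes, and 14.2% had an unadjusted p under 0.05.

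Other pigment pathway genes were read from 3 lists: further melanocyte genes, genes of melanosome assembly and transport, and signals that act on melanocytes. In skin none of those tested was called in limma, where 0.374% of all tested genes were called. The counts at an unadjusted p under 0.05 were 0 of 10, 1 of 21 and 1 of 10, edgeR called 0, and DESeq2 called 1 of the signal genes. On the hair score, 1 of the 10 signal genes was called, where 2.21% of all tested genes were called. That gene was Foxn1, a transcription factor of hair keratinocytes that also directs pigment to them (slope 0.70, SE 0.15, limma adjusted p = 0.0394). It was at 1443 in control replicate 4 and between 175 and 622 in the other libraries. Its slope was 0.46 (adjusted p = 0.203) without control replicate 4, and the call was also lost without control replicate 1 (0.73, adjusted p = 0.117), control replicate 2 (0.71, adjusted p = 0.0533), eKO replicate 1 (0.69, adjusted p = 0.0929) or eKO replicate 3 (0.66, adjusted p = 0.0912). It was lost too without the 2 libraries farthest from the median score (0.73, adjusted p = 0.210) and with inner root sheath genes alone in the score (0.69, adjusted p = 0.05001, just above the threshold).

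In HFSC, 3 of the 7 further melanocyte genes tested rose and none fell, where 10.7% of all tested genes were called higher. Gpnmb, a melanosome and lysosome glycoprotein that macrophages also make in quantity, was at 43.9, 36.8 and 34.0 in controls and at 516, 714 and 579 in eKO. Its log2 difference was 3.94 (SE 0.22, limma adjusted p = 1.51e-07), beside the rise of the MHC class II genes given above. Ptprc did not rise with them, and the part of leukocytes was not tested. Slc7a11, the cystine transporter that favours red-yellow pigment in melanocytes and guards many cells against oxidation, rose from 39.5 ± 15.3 (SD, n = 3) to 113 ± 9.49 (1.57, adjusted p = 0.00910). Bace2, a protease that trims PMEL, rose from 35.5 ± 7.47 to 104 ± 4.15 (1.54, adjusted p = 0.00487). None of the 3 is confined to melanocytes. Trpm1, which is more restricted to melanocytes in skin, was at 13.6 ± 7.09 and 13.3 ± 8.97 (-0.21, adjusted p = 0.886).

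Of 20 genes of melanosome assembly and transport tested in HFSC, 2 rose and none fell, a share close to the 10.7% called higher among all tested genes. Rab32, a small GTPase that routes cargo such as tyrosinase to melanosomes, was at 311, 337 and 353 in controls and at 657, 782 and 672 in eKO (log2 difference 1.07, SE 0.14, limma adjusted p = 1.74e-04). Mreg (melanoregulin), which acts in the transfer and movement of melanosomes, was at 107, 134 and 197 in controls and at 395, 371 and 251 in eKO (1.23, SE 0.25, adjusted p = 0.00450). The groups did not overlap for either gene, as was so for 36.3% of all tested genes. The other 18 genes did not pass.

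Of 7 signal genes tested in HFSC, 3 rose and 1 fell, where 10.7% of all tested genes were called higher and 8.74% lower. The gene a (nonagouti), whose working product blocks MC1R and shifts pigment toward yellow, was at 189, 183 and 115 in controls and at 113, 55.9 and 40.5 in eKO (log2 difference -1.31, SE 0.37, limma adjusted p = 0.0247). The strain named for these mice is nonagouti, so no working product of this gene is assumed here, and none was measured. Edn1, an endothelin that stimulates melanocytes and is made in quantity by endothelium, was read 12, 29 and 16 times in controls and 138, 53 and 61 times in eKO, with values of 19.5 ± 9.75 and 75.9 ± 25.1 (SD, n = 3; 1.96, SE 0.46, adjusted p = 0.00998), beside the rise of the 7 endothelial genes, whose part was not tested. Edn2 rose from 66.2 ± 8.54 (SD, n = 3) to 126 ± 28.0 (0.91, adjusted p = 0.0385) and Foxn1 from 29.1 ± 23.1 to 97.8 ± 20.5 (2.08, adjusted p = 0.0237). Kitl, the KIT ligand, did not pass (0.28, adjusted p = 0.197).

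The calls of 3 of these 4 signal genes depended on single libraries or settings. The limma call of a was lost without control replicate 1 (-1.18, adjusted p = 0.112), control replicate 2 (-1.20, adjusted p = 0.111), eKO replicate 2 (-1.21, adjusted p = 0.0653) or eKO replicate 3 (-0.99, adjusted p = 0.0864). That of Edn2 was lost without any one control library (adjusted p 0.0790 to 0.137) and without eKO replicate 2 (0.74, adjusted p = 0.113) or 3 (0.93, adjusted p = 0.0760), and with all libraries and no filter (0.91, adjusted p = 0.0618). That of Foxn1 was lost without control replicate 1 (1.31, adjusted p = 0.0634), control replicate 2 (2.23, adjusted p = 0.0573), eKO replicate 1 (2.04, adjusted p = 0.0605) or eKO replicate 2 (1.94, adjusted p = 0.0751). Every one of these values kept its sign. Edn1, Gpnmb, Slc7a11, Bace2, Rab32 and Mreg were called in each fit that left out 1 library.

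**Figure D5:**
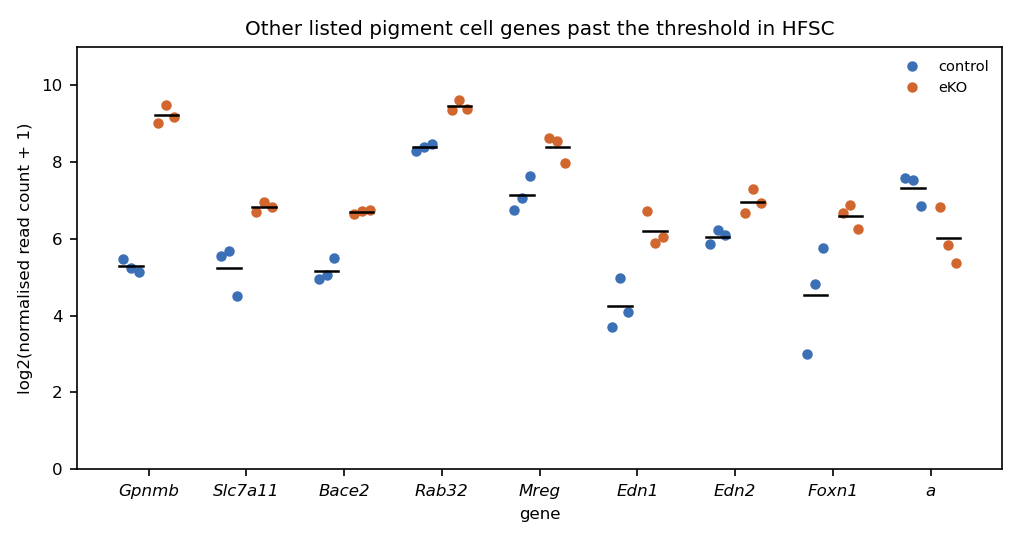
Normalised read counts of 9 further pigment pathway genes in the 6 HFSC libraries on a log2(value + 1) axis, with 1 point per library and the mean of the log2 values of each group as a bar. Gpnmb rises from 34.0 to 43.9 in controls to 516 to 714 in eKO, and the gene a is the 1 gene of the 9 that is lower in eKO.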

How the data were processed

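The deposited values, 1 table per tissue, are a signal: per the values themselves, gene read counts divided by 1 size factor per library. Per the submitters' processing notes, GRCm39 was used for both tissues and featureCounts and DESeq2 for skin; the aligner, annotation and strand use are not given in the sources used here. Whole reads were recovered from the steps of the low values (100% of nonzero values within 0.01 of a whole number). Gene names matched 94.1% of skin rows and 91.4% of HFSC rows. Exon lengths and overlaps are from GENCODE M21.

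The main test was limma 3.58.1 (R 4.3.3) with a trended prior on log2(value + 1), which understates the change of low genes, on genes reaching 10 in at least 5 skin or 3 HFSC libraries. P-values were adjusted by Benjamini-Hochberg over all genes of a table, two-sided, with a threshold of 0.05. Tissues were fitted apart, and the difference of their effects in 1 fit of 4 group means. Alternatives were edgeR 4.0.16 and DESeq2 1.42.0 on recovered reads, library-size scaling, other pseudocounts (0.5 and 5), no filter, a Ddx3y covariate in skin and each library left out. The scripts were tested on simulated data. Limits from counts of 0 cover counting error only. The members and the gene lists were chosen with earlier results of these data known. Named genes were the members, genes of the pathway lists past the threshold or with the smallest p, and the 10 genes most like the pigment mean; Trpm1 and Mc1r in skin were named after their values were seen.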

Additional observations from a re-analysis of the deposited data

Results flagged for a closer look

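Within each genotype of skin, a library counted as standing apart where its gap to the nearest other library exceeded 0.71 of the range of its group of 5. Of 20 such groups, 6 held a library of this kind. The rule was applied to values that were not on the log scale of the tests. The genes also vary together, so the groups are not independent and the count has no chance rate to be set against. Control replicate 4 was that library for 5 genes: Tyr at 976, Tyrp1 at 1525, Dct at 3887, Oca2 at 235 and Slc45a2 at 151. The sixth was Tyr in eKO replicate 4, at 136. Control replicate 4 also had the highest hair score, 1.53, and its part in the pigment values was not tested.

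The genotype effects on Mitf in HFSC and in skin differed by -1.77 on the log2 scale (limma interaction, adjusted p = 0.00256), with all 3 eKO HFSC libraries below all 3 controls and overlapping groups in skin. Groups that did not overlap were found for 36.3% of all tested genes in HFSC. In HFSC the Y-linked genes fell as well, and the 2 contrasts come from separately made tables.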

How the results depend on the processing

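Mitf in HFSC and the difference between tissues for Mitf kept their sign and their call under every alternative run, and no member was called in skin under any. Signs turned for members that passed no test. In skin, DESeq2, edgeR and edgeR with library-size scaling gave -1.91, -1.91 and -1.93 for Tyr, -1.01, -1.01 and -1.03 for Tyrp1, -1.05, -1.05 and -1.07 for Dct and -1.42, -1.40 and -1.41 for Slc45a2, and the first 2 gave -0.022 and -0.025 for Kit. With 1 library left out, skin differences ran from -0.18 to 1.85 for Tyr (-0.0032 without control replicate 1), from -0.062 to 1.40 for Dct, from -0.85 to 0.21 for Mlana (0.05 without control replicate 1) and from -0.12 to 0.44 for Kit (-0.02 without eKO replicate 3). In HFSC, DESeq2 and edgeR gave 0.066 and 0.076 for Tyrp1, and leaving out 1 library gave -0.47 to 0.45 for Tyrp1 (0.09 without control replicate 1), -0.14 to 0.15 for Dct (0.13 without eKO replicate 1) and -0.48 to 1.88 for Kit. For the difference between tissues the same ranges were -1.43 to 0.040 for Dct and -0.61 to 1.74 for Kit. The slope of Mlana on the hair score was 0.026 in edgeR, -0.92 to 0.26 with 1 library left out and 0.43 without the 2 libraries farthest from the median score, and that of Mitf was -0.041 to 0.13 with 1 library left out (-0.041 also with no filter and without control replicate 4).

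The number of members called in HFSC was 2 with a pseudocount of 5 (Pmel -1.33, limma adjusted p = 0.0446) and 1 to 2 with 1 library left out. For the slope it was 1 in edgeR, 1 with hair shaft genes alone in the score, 2 with no filter (Tyr and Oca2) and 0 to 2 with 1 library left out. Over all genes, calls in skin ran from 10 to 656 around 62, in HFSC from 1519 to 3016 around 2673, for the difference from 452 to 837 around 743 and for the slope from 124 to 459 around 367. The HFSC split was 1468 higher and 1205 lower in limma, 1523 and 1086 in edgeR with TMM and 1274 and 1437 in edgeR with library-size scaling, which also shifted the median of all genes for the difference to -0.10. The HFSC replicate numbers did not pair the libraries (correlations of -0.06, -0.02 and -0.03 for equal numbers). The fit with replicate number as a block called 2 members, Mitf and Pmel (-1.45, limma adjusted p = 0.0332), and 2696 genes; skin numbers only follow the order of deposition, so no block was run there or for the difference between tissues. Leaving out control replicate 4 or the 2 farthest libraries in the likeness ranking, and leaving out control replicate 4 with no filter in the slope, were chosen after seeing the data. In the ranking 2 and 0 of the 10 genes were then shared. Depth limits Oca2, Slc45a2, Sox10, Mlana and Tyr in HFSC, which were below the filter over all 6 libraries, and none of these 5 was called with no filter.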
